A study of Mus musculus with 2 samples.

Results

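The chemokine receptor genes described here are Ccr1, Ccr2, Ccr6, Ccr7, Ccr9, Cxcr3, Cxcr4, Cxcr6 and Cx3cr1, taken as every non-control probe of the array whose gene name is on that list. They make up 9 of the 37068 gene names and 14 of the 56593 probes with a usable spot on both arrays. RNA from the olfactory bulb, the first relay of smell in the brain, came from 1 control mouse held in standard odor conditions and from 1 mouse held in odor-enriched conditions, each labelled with Cy3 and put on 1 Agilent mouse array. The labels name neurons of the bulb as the tissue but give no sorting step, and no strain, age, sex or odor. The comparison therefore asks which receptor transcripts differed between these 2 bulbs, with no replicate on either side, so no test between the conditions was possible and none was run.

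Chemokine receptors are cell surface receptors coupled to inhibitory G proteins that steer migrating cells along gradients of small secreted proteins, the chemokines. Most of them sit on leukocytes, and each class of leukocyte carries its own set, so that a receptor transcript in brain tissue usually reports on microglia, on monocytes or on lymphocytes. Cx3cr1 is abundant in microglia, whereas Cxcr4 is also used by neural precursors, vessel cells and many leukocytes.

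Levels below are log2 signals relative to the array's 75th percentile, and a difference is odor enriched minus control, so that 1 log2 unit is 2-fold. Different probes of the same gene differed in this difference with a pooled SD of 0.63 over 8234 genes, and repeat spots of 300 probes with a pooled SD of 0.05, both within these 2 arrays. Neither covers the spread between mice, and precision is limited by having 1 array a group. Of the spots that were not controls, 73.7% in the control and 67.6% in the enriched array were well above background, a flag of the scanner software. Bulb neuron markers were present on both arrays, with 14 of 14 listed genes measured and a median difference of -0.42. Syt1 (0.50), Gad2 (0.14) and Meis2 (-0.03) were the highest of them, and the mitral and tufted cell genes Doc2g (-1.84) and Cdhr1 (-1.40) the lowest.

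Of the 8 receptor genes measured on both arrays, Cxcr6, Cxcr3 and Ccr7 were higher by 2-fold or more in the enriched bulb and Ccr6 was lower by 2-fold or more. Over all 23872 genes measured on both arrays, 11.5% were higher by 2-fold or more and 5.52% lower by 2-fold or more, 17.0% in either direction. Among the genes under the median level, the share in either direction was 19.1%. The 8 genes had a median difference of 0.89 against 0.0016 over all genes, and 6 of 8 lay above 0, where 50.1% of all genes did. The split of all genes past 2-fold depended on the scaling: 67.6% of them were higher, against 50.9% with median centring, 88.5% with the series matrix values and 1.84% after scaling on the E1A spike-in probes, RNA added from outside the sample. The E1A scaling shifted the all-gene median by -1.76, and on that scale the receptor median was -0.88 and only Cxcr6, Cxcr3 and, by 0.04, Ccr7 stayed above 0. Ccr1 had no value, because its single probe was not well above background on either array.

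**Figure D1:**
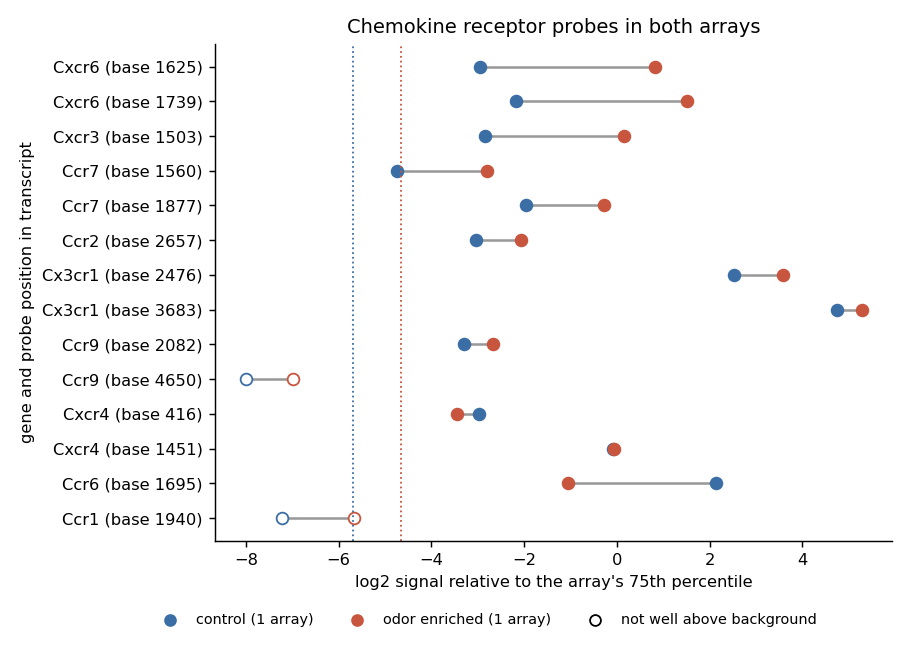
Each row is 1 probe of a chemokine receptor gene, with its base position in the transcript, and the points are the log2 signals relative to the 75th percentile in the control (blue) and the enriched array (red), 1 array each; open points were not well above background and dotted lines mark the lowest signal well above background on each array. Both Cxcr6 probes, the Cxcr3 probe and both Ccr7 probes lay further right in the enriched array, and the Ccr6 probe lay further left (-1.06 against 2.13).

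Cxcr6, the receptor for Cxcl16 on effector and tissue-resident T cells, had the largest positive difference of the 8 genes. Its first probe, at chr9:123720605-123720664 (mm9), had a processed signal of 32.5 in the control and 355 in the enriched array. Its second probe, at chr9:123720719-123720778, had 55.6 and 573. Both probes were low in the control, over a local background of 18 and 15 there, and high in the enriched bulb. They detect neighbouring but separate stretches of the same mRNA (NM_030712), and the first 30 of the 60 bases of each are shown because their matching differences come from different sequences.
Cxcr6 probe from base 1625: tgcttatgttttactggaattgtcttgtaa
Cxcr6 probe from base 1739: acagagcttaagactttaacaaatacaaga
The differences were 3.76 and 3.68 log2 units, closer to each other than the pooled SD between probes, and their mean of 3.72 was 13.2-fold. Cxcr6 ranked 109 from the highest of the 23872 genes. The difference ranged from 2.58 with normexp background correction to 4.05 with the deposited series matrix values over 12 settings, and was 1.96 on the E1A scale.

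Cxcr3, the receptor of activated T and NK cells for the interferon-inducible chemokines Cxcl9, Cxcl10 and Cxcl11, was 8.05-fold higher in the enriched bulb. Its single probe (chrX:98926920-98926979, mm9, minus strand; NM_009910) gave a signal of 34.6 in the control and 225 in the enriched array, with a local background of 16 and 20. The probe is shown because the value rests on this sequence alone.
Cxcr3 probe from base 1503: gccaggcgttgtcagcactgaatgtgccca
The level went from -2.85 to 0.16, a difference of 3.01 that placed Cxcr3 at rank 285 from the highest. It was 1.86 with normexp and 1.25 on the E1A scale, and 2-fold or more under each of 12 settings besides the E1A scaling; with the mean over the spike-in probes it was 0.89, short of 2-fold.

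Ccr7, which guides naive T cells and mature dendritic cells to lymph nodes, was 3.50-fold higher in the enriched bulb, with a difference of 1.81 over 2 probes. The probe from base 1877 (chr11:99005551-99005610, mm9) gave 64.4 in the control and 166 in the enriched array. The probe from base 1560, for which the files place only 26 of the 60 bases on the genome (chr11:99005513-99005538), gave 9.36 and 28.8. Both probes are placed on the minus strand, where base 1560 should lie at higher coordinates than base 1877. The placement of the probe from base 1560 therefore conflicts with its transcript position. Its control level of -4.74 was not far above -5.69, the lowest signal well above background on that array.
Ccr7 probe from base 1560: cttctagcttagagagatgtcccggagatt
Ccr7 probe from base 1877: cagccactgatacctttcctcatgttctgc
Each probe was higher in the enriched array, by 1.93 and 1.68 log2 units. The difference dropped to 0.92 with normexp, under 2-fold, and lay near 0 on the E1A scale, at 0.04 from the median over the spike-in spots and at -0.31 from the mean over the spike-in probes. Its direction therefore depended on the scaling.

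The receptors of monocytes and microglia were higher by less than 2-fold. Ccr2, which draws monocytes out of bone marrow and into tissue, had a signal of 30.5 in the control and 48.4 in the enriched array at its single probe (chr9:124022948-124023007, mm9). Its difference of 0.98, 1.97-fold, lay just under the threshold, reached 2-fold under 2 of 12 settings, and was 0.56 with normexp and -0.78 on the E1A scale. Cx3cr1, the receptor for fractalkine and a marker of microglia, had a signal of 1449 in the control and 2425 in the enriched array at its probe from base 2476 (chr9:119959018-119959077), and 6718 and 7842 at the one from base 3683 (chr9:119957811-119957870). These probes lay 1.05 and 0.53 log2 units higher, a mean of 0.79 or 1.73-fold, which reached 2-fold under 1 of 12 settings (1.13 from the series matrix values) and was -0.97 on the E1A scale. The differences of Ccr2 and Cx3cr1 reported here were each larger than the pooled SD of 0.63 between probes. Those of Ccr2 with normexp, and of Cx3cr1 with median centring (0.62) or with its brightest probe alone (0.53), were not. Of all genes, 11.9% were at least as high as Ccr2 and 15.5% at least as high as Cx3cr1. Without a second mouse neither difference can be set against biological spread. Ccr1, which is carried by many myeloid cells, gave a signal of 1.67 in the control and 3.95 in the enriched array, not well above background in either, so no fold is given.

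Ccr9 and Cxcr4 also stayed within 2-fold. Ccr9, a gut-homing receptor for Ccl25, had a signal of 25.3 in the control and 31.5 in the enriched array at the probe that was above background (chr9:123690334-123690393, mm9), a difference of 0.63, which was -1.14 on the E1A scale. Its other probe, at chr9:123680935-123680994 and assigned to a separate transcript (AK162996), was not well above background on either array. Cxcr4, the receptor for Cxcl12, had signals of 238 and 195 at the probe from base 1451 (chr1:130485079-130485138) and 31.7 and 18.6 at the probe from base 416 (chr1:130486114-130486173). Relative to the 75th percentile, the Cxcr4 probes differed by 0.02 and -0.46, and their mean of -0.22 was 0.11 from the series matrix values and -1.98 on the E1A scale.

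Ccr6, the receptor for Ccl20 on B cells, dendritic cells and subsets of helper T cells, ran the other way. Its single probe (chr17:8449933-8449992, mm9; NM_009835) gave a signal of 1096 in the control and 96.7 in the enriched array, over a local background of 17 and 22. The probe sequence is shown because this value, too, rests on 1 spot per array.
Ccr6 probe from base 1695: acacgagagcacaaagcaacattgccccaa
The level was 2.13 in the control and -1.06 in the enriched bulb, a difference of -3.19 or 9.14-fold lower. Ccr6 ranked 16 from the lowest of the 23872 genes. The difference was -2.65 with normexp, -3.37 with median centring and -4.95 on the E1A scale, so it was lower by 2-fold or more under every setting run. Neither spot was flagged as an outlier or lay in a bright patch of the array. Other genes measured within 150 kb of the Ccr6 probe lay nearer to 0. Fgfr1op stood at 0.04, Mpc1 at 0.26, Sft2d1 at 0.01, Rnaset2a at 0.12 and Prr18 at 0.69. Near Cxcr3, Ogt stood at 0.31 and Taf1 at 0.37. Ccl20, the ligand of Ccr6, was not well above background on either array.

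**Figure D2:**
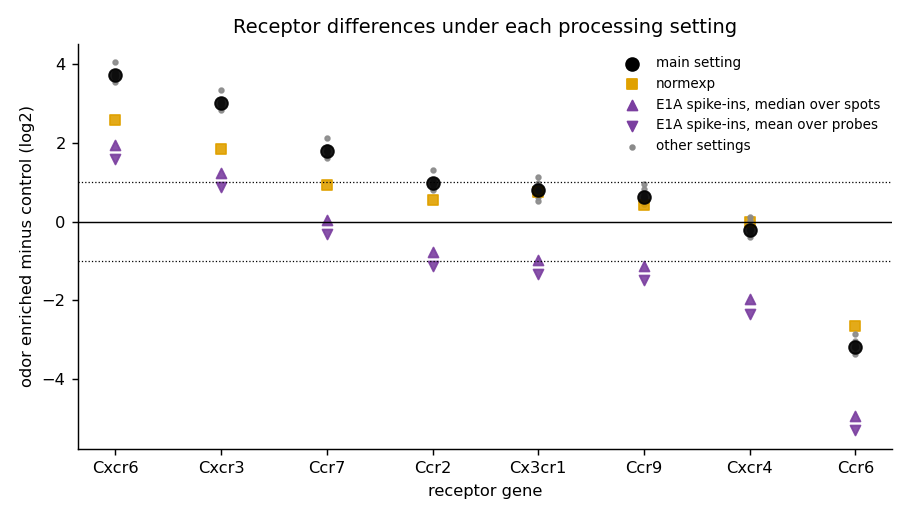
For each receptor gene the points give its difference, odor enriched minus control in log2 units with 1 array a group, under each processing setting, with the reported value in black, normexp in yellow, the E1A scalings in purple and the others in grey; dotted lines mark 2-fold. Ccr6 lies between -5.31 and -2.65 under every setting, Cxcr6 stays above 0 under all of them, and Ccr7 reaches -0.31 with the mean over the spike-in probes.

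With 1 difference per gene, likeness could be judged only as the closeness of that difference over the 2 arrays. Among 7844 named coding genes of at least median level on both arrays, the nearest to Cxcr6 were Vpreb2 (3.72) and the heat shock gene Hspa1a (3.69). Those nearest to Cxcr3 were the interferon-inducible GTPase Irgm2 (3.0) and the vascular adhesion molecule Vcam1 (2.99), and those nearest to Ccr7 were the endothelial cadherin Cdh5 (1.80) and Il22ra1 (1.81). For Ccr6 the nearest were Retsat (-3.01), a retinol saturase, and Plekha4 (-2.76), the latter 0.43 away.

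The ligand genes covered a wider range than the receptors, from -2.35 to 7.57. Of 16 listed ligand genes 15 were measured on both arrays, 8 of them higher by 2-fold or more and 1 lower by 2-fold or more. Over all genes these shares were 11.5% and 5.52%. The ligands had a median difference of 1.08, or -0.69 on the E1A scale, where only Cxcl9, Ccl5, Cxcl10 and Ccl19 stayed above 0. For Cxcr3, the ligand Cxcl9 went from -4.74 to 2.83 (7.57, and 4.84 with normexp) and Cxcl10 from -2.56 to 1.11 (3.68, with probes at 2.53 and 4.82). The control level of Cxcl9, from 1 probe, was not far above -5.69, the lowest signal well above background on that array. Cxcl11, already bright in the control, went from 5.52 to 6.37 (0.84, or -0.92 on the E1A scale). For Ccr7 the ligands went opposite ways, with Ccl19 at 2.83 and Ccl21a at -2.35. Ccl21a has near-identical copies in the mouse genome, so its probe may read several of them. Ccl2 (1.69), Ccl7 (1.66) and Ccl12 (1.5), the ligands of Ccr2, were all higher by 2-fold or more, though each lay between -0.27 and -0.07 on the E1A scale. Among the ligands of Ccr1, Ccl5 stood at 5.45, Ccl3 at 0.65 and Ccl9 at -0.48. Cxcl16, the ligand of Cxcr6, stood at 0.86, far from the 3.72 of its receptor, and Cxcl12 of Cxcr4 at 1.08, with its probes at 0.51 and 1.64 and 0.90 with median centring. Cx3cl1, the neuronal ligand of Cx3cr1, stood at 0.34, with probes at -0.22 and 0.89, and Ccl25 of Ccr9 at -0.99, just short of 2-fold.

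**Figure D3:**
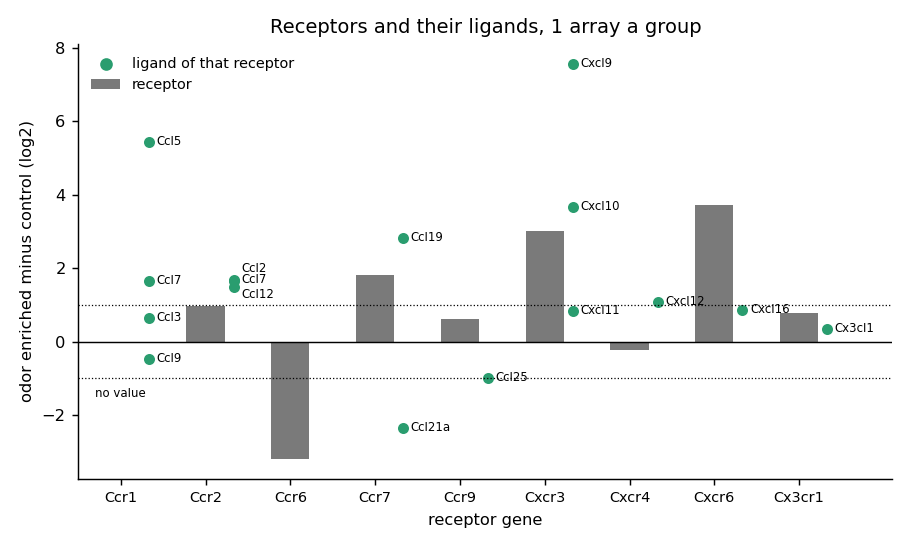
Bars give the difference of each receptor gene, odor enriched minus control in log2 units with 1 array a group, and green points the differences of its ligands; dotted lines mark 2-fold, and Ccr1 has no value because its probe was not well above background. Receptor and ligands were both higher by 2-fold or more for Cxcr3 with Cxcl9 and Cxcl10 and for Ccr7 with Ccl19, before the shift of -1.76 that the E1A scaling brings.

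Among chemokine receptors outside the 9, Ackr1 had the largest difference. Of 14 other receptor genes 10 were measured, with 4 higher by 2-fold or more and 0 lower by 2-fold or more, beside 11.5% and 5.52% of all genes. Their median was 0.55 (-1.22 on the E1A scale). The E1A scale left only Ackr1 above 0. The highest were the scavenging receptors Ackr1 (2.21), found on venules and red cells, and Ackr3 (1.27), which binds Cxcl12, followed by Ccr3 (1.26, and 0.50 with normexp), an eosinophil receptor. The lowest were Ackr2 (-0.88, and 0.03 with normexp) and Cxcr2 (-0.25), the neutrophil receptor. Cxcr5 was above background in the control array only, with no bound on a decrease, and Ccr4, Cxcr1 and Xcr1 had no probe above background on both. Of 26 genes for G proteins, arrestins, kinases and migration factors, all measured, 3 were higher by 2-fold or more and 2 lower, near the shares of 11.5% and 5.52% over all genes, with a median of 0.02 that turned negative with median centring, with normexp and on the E1A scale. The 3 were Rgs16 (1.88) and Rgs1 (1.34), which shorten G protein signals, and Rac2 (1.55), a GTPase of blood cells, of which Rgs1 and Rac2 were below 0 on the E1A scale. The 2 were the phospholipase Plcb3 (-1.26, and -0.74 with normexp) and the G protein subunit Gnb1 (-1.09, and -0.76 from the series matrix values).

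Of these receptor genes, 4 lie close together on chromosome 9, which allowed their differences to be set beside their neighbours on mm9. Within 400 kb of the Cxcr6 probes there were 15 coding genes with all probes in the window, and 11 of them were measured. Cxcr6 at 3.72 stood out from the genes on either side, with Fyco1, an autophagy adaptor about 8 kb away by its probes, at -1.14 and Ccr9 on the other side at 0.63. Further along, Ccr3 stood at 1.26 and Ccr2, 302 kb away, at 0.98.

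**Figure D4:**
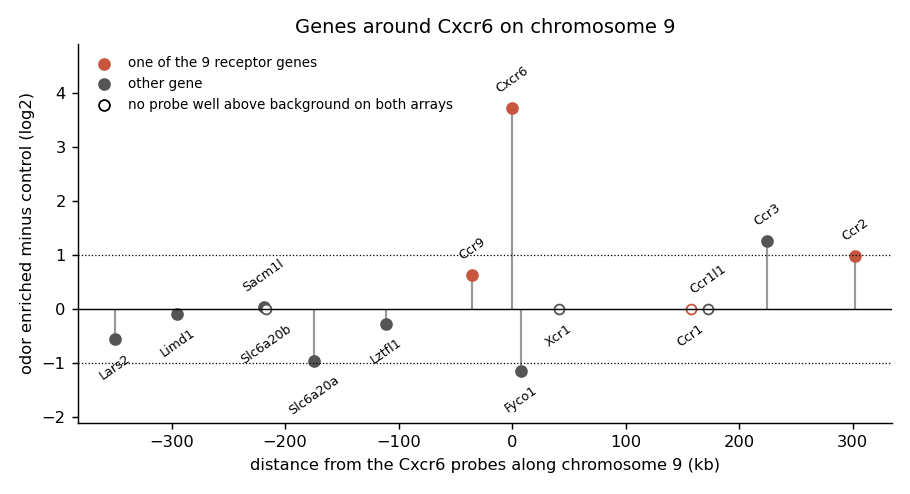
Points give the difference of the genes shown, odor enriched minus control in log2 units with 1 array a group, against the mean distance of its probes from the Cxcr6 probes in kb; open points had no probe well above background on both arrays and dotted lines mark 2-fold. Cxcr6 stands at 3.72 beside Fyco1 at -1.14 and Ccr9 at 0.63, and every point moves by -1.76 on the E1A scale.

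The sequences before the transcription starts of Cxcr3 and Cxcr6 are shown because these genes had the largest positive differences of the 9. They are the 250 bases before the RefSeq start on GRCm38.p6, a later build than that of the probe coordinates, and capitals mark matches to motifs.
Cxcr3, chrX:101734148-101734397, minus strand: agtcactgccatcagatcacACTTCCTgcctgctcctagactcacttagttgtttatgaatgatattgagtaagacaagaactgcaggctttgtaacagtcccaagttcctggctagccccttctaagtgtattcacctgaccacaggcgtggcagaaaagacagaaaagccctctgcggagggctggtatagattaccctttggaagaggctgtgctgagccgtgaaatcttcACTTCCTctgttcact
Cxcr6, chr9:123806227-123806476, plus strand: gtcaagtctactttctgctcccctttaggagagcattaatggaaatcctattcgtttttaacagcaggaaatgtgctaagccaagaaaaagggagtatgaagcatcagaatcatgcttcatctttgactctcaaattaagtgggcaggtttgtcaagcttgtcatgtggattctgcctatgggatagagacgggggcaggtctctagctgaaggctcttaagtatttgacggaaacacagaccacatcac
The motifs searched on both strands were the interferon-gamma-activated site TTCNNNGAA, the T-box site TCACACC, the ETS site AGGAAGT and the TATA box TATAAA. The interferon-gamma-activated and ETS sites can share letters, and so can TATA matches on opposite strands. The Cxcr3 window held 2 ETS matches and no other, and the Cxcr6 window held none of the 4 motifs. Of 32851 windows of this length, 7.69% held the ETS site, 7.02% the interferon-gamma-activated site, 3.33% the T-box site and 12.4% the TATA box. For Ccr6, which differed in the other direction, 1 of its windows held 2 interferon-gamma-activated sites and 1 ETS site. The Cxcr4 window held 2 overlapping TATA matches, 1 on each strand. Windows were found for 8 of the 9 genes, all but Ccr7. These matches describe the letters only.

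Most T cell markers, like Cxcr6 and Cxcr3, were higher in the enriched bulb. The direction of Ccr7, and that of the T cell markers Cd3e, Cd247 and Cd4, depended on the scaling. Of 12 T cell markers 11 were higher by 2-fold or more and 0 lower by 2-fold or more, beside 11.5% and 5.52% of all genes. The T cell markers had a median of 3.59 (1.83 on the E1A scale) and a mean level of -2.37 in the control and 0.63 in the enriched array. Cd8b1 (5.25) and Cd3g (4.16) were the highest, and Cd247 (1.12, and 0.85 with normexp) and Cd4 (0.02) the lowest. On the E1A scale Cd3e (-0.32), Cd247 (-0.64) and Cd4 (-1.74) lay below 0, and the other T cell markers above it. Among 5 measured NK cell markers, 3 were higher by 2-fold or more, Gzma (4.07), Klrd1 (3.88) and Klrk1 (2.45). Prf1 stood at 0.58 and Klrb1c, read by 1 of its 3 probes with a control level of 5.99, at -0.18. Ncr1 was not above background on both arrays. The part of lymphocyte number in the receptor differences was not tested, and in bulk tissue more cells of a type and more RNA per cell cannot be told apart.

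The other lists of cell type markers had smaller medians than the T cell markers. Microglia markers, 11 of 11 measured, had a median of -0.12 and a mean level of 2.55 in the control and 2.54 in the enriched array, with Aif1 at 1.09, Csf1r at 0.28, Olfml3 at 0.20, Tmem119 at -0.36 and P2ry12 at -0.49, beside 0.79 for Cx3cr1. The series matrix values put that median at 0.21, and loess at 0.0012. Monocyte markers, 6 of 6 measured, had a median of 0.996 (-0.77 on the E1A scale), beside 0.98 for Ccr2, with Plac8 at 3.21, Ly6c2 at 1.91, S100a4 at 1.62 and Chil3 at -1.83. B cell markers, 4 of 5 measured, had a median of 0.68 (-1.08 on the E1A scale) beside -3.19 for Ccr6. Ms4a1 stood at 1.64, Pax5 at 0.59 and Cd79b at 0.58. Cd79a was above background in the control array only, with no bound on a decrease. Dendritic cell markers, 5 of 6 measured, had a median of 0.30, beside 1.81 for Ccr7 and -3.19 for Ccr6. Itgax stood at 0.56, Batf3 at 0.46, Zbtb46 at 0.30, Flt3 at -0.09 and Cd209a at -0.71. By the bound used here, Clec9a was at least 4.77-fold higher, being above background in the enriched array only. Endothelial markers, 6 of 6 measured, had a median of 1.76, which was -0.0043 on the E1A scale, with Emcn at 3.10, Flt1 at 1.95, Cdh5 at 1.80, Pecam1 at 1.09 and Cldn5 at 0.71. Neutrophil markers, 8 of 8 measured, had a median of -0.66, with Ly6g at 3.03, Retnlg at -0.33, Elane at -0.45, Ngp at -0.93 and Mpo at -1.22. The part of these cell types in the receptor differences was not tested.

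**Figure D5:**
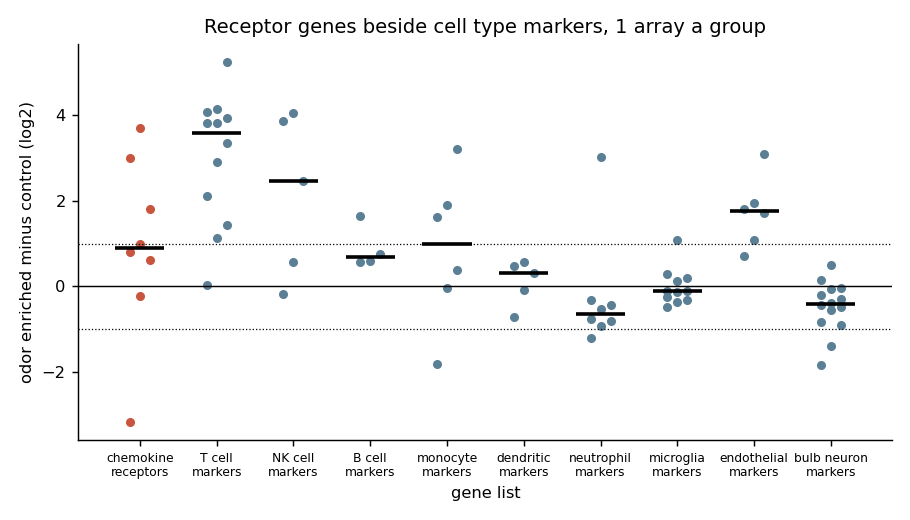
Each point is the difference of 1 measured gene, odor enriched minus control in log2 units with 1 array a group, for the chemokine receptors (red) and for 9 lists of cell type markers (blue); black lines are list medians and dotted lines mark 2-fold. The receptors spread from -3.19 to 3.72, the T cell markers centre on 3.59 and the microglia markers on -0.12, and every point moves by -1.76 on the E1A scale.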

How the data were processed

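The deposited files hold spot intensities from Agilent Feature Extraction 11.5.1.1 per the file headers, background subtracted and detrended within each 1-colour array but not normalized between arrays, with probe coordinates on mm9. The authors' deposited series matrix holds log2 values that followed the log2 processed signal minus a constant, within 0.01 for 91.7% of the control array's probes and 99.9% of the other's. It served as an alternative, and the origin of its centring stays unknown. Column medians were -9.48 and -8.98.

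The 122 and 183 outlier spots were dropped and none was saturated. Spots were averaged as log2, the 75th percentile was subtracted, and a gene was the mean of those of its probes that passed the background flag on each array. A gene above background on 1 array was set against the other array's lowest such signal or its own level there, whichever was higher. It got a lower bound only where its level exceeded that value, as for Clec9a. Cxcr5, Cd79a and Gpr15, above background in the control array only, got no bound, so no decrease is given for them. The lowest such signal was -5.69 in the control and -4.66 in the enriched array. All 13 RefSeq accessions of member probes matched the same gene name. Exon and UTR positions were not determined. Members and lists were chosen with earlier results of these data known. All receptors and ligands are named, and the 3 highest and 2 lowest measured genes of each other list. Some genes of these lists are not reported here. The rule that all probes of a gene lie in the chromosome 9 window, and the minimum of 5 spots for the repeat-spot SD, were set after a first run. Alternatives changed the scaling, background correction, values used, outlier handling, filter, probe choice and threshold; they included the E1A spike-in probes. Computation used Python 3.11.15, numpy 2.4.6, pandas 2.3.3, matplotlib 3.10.9, R 4.3.3 and limma 3.58.1, and was tested on simulated data.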

Additional observations from a re-analysis of the deposited data

How the results depend on the processing

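No paired analysis was possible because each group holds 1 array, and for that reason no replicate could be left out. The count of receptors at least 2-fold different was 4 (3 higher, 1 lower), 3 with normexp and 6 with the series matrix values (5 higher, 1 lower). The split turned round on the E1A scale, to 2 higher and 3 lower, and to 1 higher and 5 lower with the mean over the spike-in probes. At a 1.5-fold threshold it was 7. The ligand count was 9 (8 higher, 1 lower) and ranged from 7 to 13, with 4 higher and 5 lower on the E1A scale and 3 higher and 8 lower with the mean over those probes. Over all genes, 17.0% were past 2-fold, 7.87% with normexp and 21.1% with the series matrix values. On the E1A scale the all-gene share was 85.2%, with 1.84% of those genes higher. With the mean over the spike-in probes it was 91.2%, with 1.14% of those genes higher, so the split of all genes turned in the same way. Normexp, whose offset of 50 shrinks differences of dim genes, gave 0.92 for Ccr7, 1.86 for Cxcr3 and 2.58 for Cxcr6. Scaling on the E1A spike-in spots shifted the all-gene median by -1.76 and gave -0.78 for Ccr2, -4.95 for Ccr6, 0.0447 for Ccr7, -1.14 for Ccr9, 1.25 for Cxcr3, -1.98 for Cxcr4, 1.96 for Cxcr6 and -0.97 for Cx3cr1. The 8 spike-in probes above background differed by 1.23 to 1.62, except for 1 at 4.42, and whether equal amounts were added is not given in the sources used here. The mean over these probes was computed first, and the median over spots was put in its place after both values were seen. The mean, kept as an alternative chosen after seeing the data, moved the median by -2.12 and gave -1.14 for Ccr2, -5.31 for Ccr6, -0.31 for Ccr7, -1.49 for Ccr9, 0.89 for Cxcr3, -2.34 for Cxcr4, 1.60 for Cxcr6 and -1.32 for Cx3cr1. The cause of the gap between the spike-ins and the other probes was not tested. Under the other settings run, these 8 differences moved by less than the pooled SD of 0.63 between probes.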

Other observations

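Receptors for other chemoattractants, a list written after the chemokine receptor values were known, had S1pr4 and S1pr5 as its largest differences. Of 12 listed genes 11 were measured, and 2 were higher by 2-fold or more and 0 lower, where 11.5% and 5.52% of all genes were. The median difference of the list was 0.26, or -1.5 on the E1A scale. The highest were 2 receptors for sphingosine-1-phosphate, a lipid that guides lymphocytes out of tissue. S1pr4 of leukocytes went from -4.99 (control) to -3.25 (odor enriched), a difference of 1.75 that was 0.56 with normexp, and S1pr5, found on NK cells and oligodendrocytes, from -0.48 to 1.03, a difference of 1.51. On the E1A scale both lay below 0. S1pr1, the receptor on lymphocytes and vessels, stood at 0.26, and the oxysterol receptor Gpr183 at 0.24. Among receptors of myeloid cells, Cmklr1 stood at 0.66, Ptafr at 0.50, Fpr2 at 0.44, Fpr1 at 0.05, C3ar1 at -0.02, Ltb4r1 at -0.09 and C5ar1 at -0.72. Gpr15 was above background in the control array only, with no bound on a decrease.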
